A study of Arabidopsis with 14 samples.

Results

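The 10 genes described here are core genes of the *Arabidopsis* circadian clock, followed in whole seedlings with and without NaCl. They were taken by name from the 37980 rows of the FPKM files, and each of the 10 names matched a single row and a single locus. They are CCA1 (AT2G46830, chromosome 2), LHY (AT1G01060, chromosome 1), RVE8 (AT3G09600, chromosome 3), PRR9 (AT2G46790, chromosome 2), PRR7 (AT5G02810, chromosome 5), PRR5 (AT5G24470, chromosome 5), TOC1 (AT5G61380, chromosome 5), GI (AT1G22770, chromosome 1), ELF4 (AT2G40080, chromosome 2) and PCL1 (AT3G46640, chromosome 3). All 10 passed the filter on low values in every comparison.

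The plant clock is a network of repressors that are transcribed in turn over the day. The MYB factors CCA1 and LHY are made around dawn and repress the evening genes, among them TOC1, GI, ELF4 and PCL1. The pseudo-response regulators PRR9, PRR7 and PRR5 follow in this order from morning to afternoon and, with TOC1, repress CCA1 and LHY. ELF4, PCL1 and ELF3 form the evening complex, a transcriptional repressor, while RVE8, a MYB factor of dawn, activates evening genes.

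The mRNA-Seq data comprised 14 libraries, 2 biological replicates in each of 7 groups, from seedlings of the Col-0 background at 10 days, grown in cycles of 8 h light and 16 h dark. Groups with 150 mM NaCl were WT, AtC3H3 OX and AtC3H26 OX, whose seedlings were laid on filter paper soaked in salt solution and taken after 1, 2 and 4 h. According to the methods, RNA of these 3 times was combined for WT and for AtC3H3 OX. Untreated groups were AtC3H3 OX, AtC3H26 OX and 2 sets of WT, numbered 1 and 2, which the labels assign to neither line. In AtC3H3 OX, a modified CaMV 35S promoter drives AtC3H3 with an N-terminal hemagglutinin tag, and the number of transgenic lines behind these libraries is not given in the sources used here. The salt medium, the filter paper and the hours of treatment came together in the NaCl libraries. No label gives the time of day of a harvest or untreated seedlings kept for the same hours, and so NaCl, handling and elapsed hours of the day cannot be told apart for genes that cycle.

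FPKM, the fragments per kilobase of transcript, scaled to the mapped fragments of the library, can be compared between genes because it is scaled by length. It was tested with limma on log2(FPKM + 1), and a gene was called at an adjusted p under 0.05 over all genes tested. On this scale the change of a gene near 1 FPKM is smaller than the ratio of its FPKM. The p-values weigh a difference against the spread between the 2 libraries of a group. This spread is pooled over the groups compared and moderated with that of all genes tested.

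The transcripts of the genes in the line names went against the labels, so the lines are named as labelled. The paper reports that its AtC3H3 OX lines were chosen by qRT-PCR and semi-qRT-PCR of AtC3H3, which the FPKM values below do not match. Among NaCl libraries, AtC3H3 was at 20.7 and 23.0 FPKM in WT but at 14.8 and 13.5 FPKM in AtC3H3 OX, and AtC3H26 at 7.97 and 7.50 FPKM in WT but at 5.11 and 4.39 FPKM in AtC3H26 OX. The 9 salt marker genes matched summed to between 355 and 636 FPKM in untreated libraries and to between 3861 and 5792 FPKM with NaCl. With NaCl the sum was 5762 and 5773 FPKM in WT and 5676 and 5792 FPKM in AtC3H3 OX. In AtC3H26 OX it was lower, at 3861 and 4127 FPKM, and untreated it was lowest there too, at 355 and 359 FPKM. Of the 9 genes, 6 were called lower and 0 higher in AtC3H26 OX than in WT with NaCl (limma). Of 19670 genes tested, 4.54% were lower and 2.55% higher. The sum of 4 shoot genes lay between 13850 and 15020 FPKM untreated and between 12330 and 13100 FPKM with NaCl. For 3 root genes it lay between 1321 and 1842 FPKM over all libraries, nearly all of it BGLU23 at 1318 to 1839 FPKM. The other root genes were low and fell with NaCl. COBL9 lay between 1.76 and 3.05 FPKM untreated and between 0.598 and 1.04 FPKM with NaCl. IRT1 lay between 0.664 and 5.57 FPKM untreated and between 0 and 0.164 FPKM with NaCl. The 2 seed storage genes summed to 1.40 FPKM or less. The relative depth of the libraries, estimated from steps of low values, ranged from 0.637 to 1.08 of that of WT with NaCl replicate 2, and the number of fragments behind a value is unknown. In whole seedlings, fewer cells of a type and less RNA per cell cannot be told apart.

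**Figure D1:**
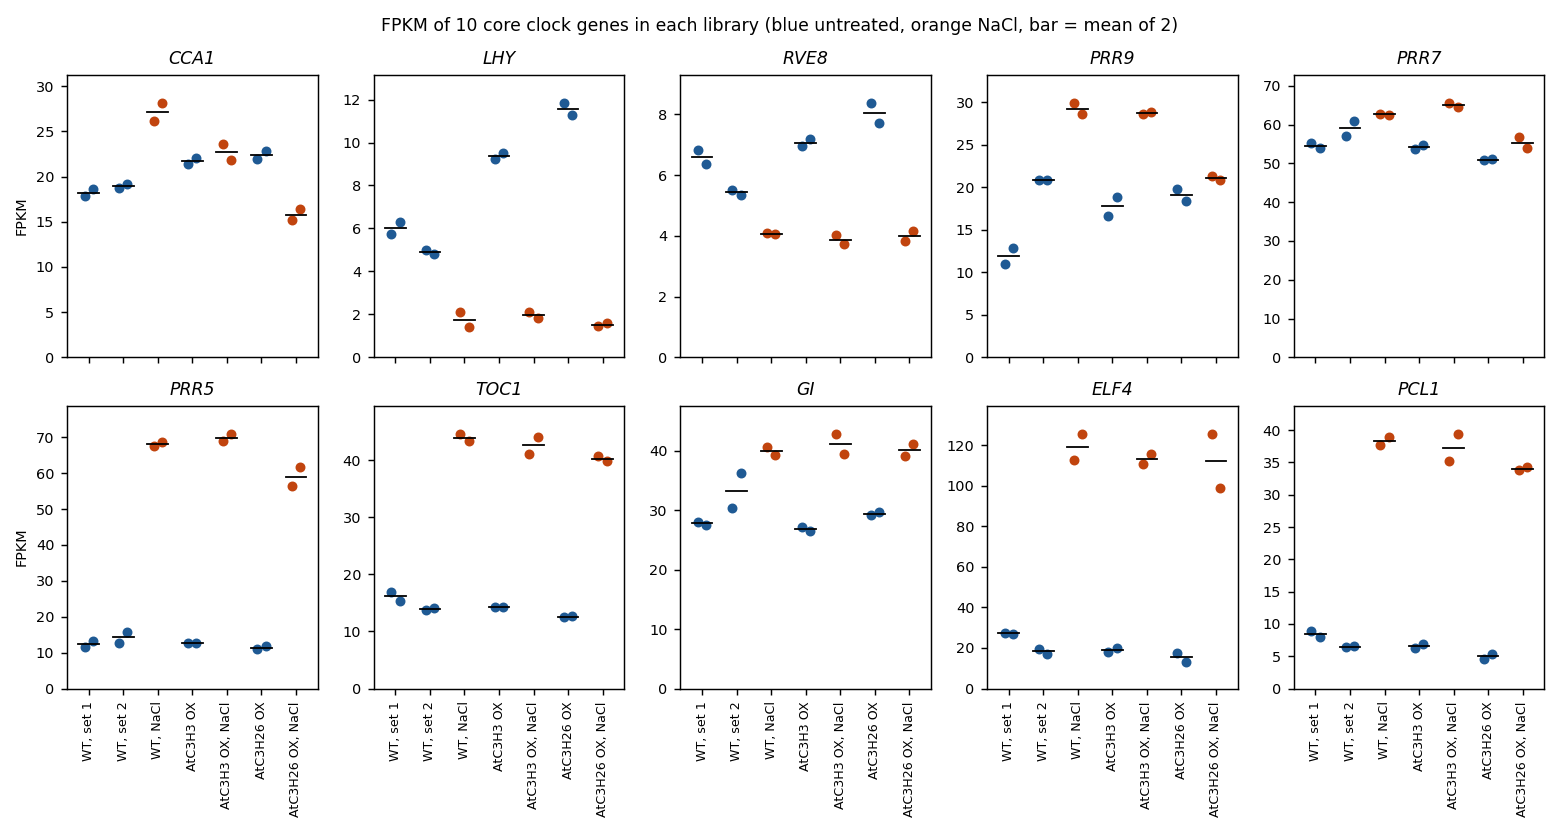
FPKM of each core clock gene in each of the 14 libraries, 1 panel per gene with its own axis from 0, blue for untreated and orange for NaCl, with a black bar at the mean of the 2 libraries of a group. The panels of PRR5, TOC1, ELF4 and PCL1 show all 6 NaCl libraries far above the 8 untreated libraries, those of LHY and RVE8 show them below, and CCA1 moves one way in WT and the other way in AtC3H26 OX.

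With NaCl, the evening genes ELF4, PCL1 and TOC1 and the afternoon gene PRR5 rose in WT and in both lines, by between 1.39 and 2.79 on the log2 scale. The dawn genes LHY and RVE8 fell in each of these comparisons. The remaining members, CCA1, PRR9, PRR7 and GI, changed less or not in every genotype. In WT against set 1, 8 of the 10 genes rose and 2 fell, where 30.2% of all 20052 genes tested rose and 33.2% fell. Of the 10 genes, 6 changed over 2-fold, against 14.6% of all genes tested.

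Against set 2 of WT, 6 of the 10 genes rose and 2 fell, beside 28.8% and 25.9% of 20022 genes tested. In the libraries labelled AtC3H3 OX, 7 rose and 2 fell, beside 31.4% and 29.9% of 19976 genes. In those labelled AtC3H26 OX, 5 rose and 3 fell, beside 29.2% and 26.4% of 20055 genes. Changes over 2-fold were called for 5 of the 10 genes in each of these 3 comparisons, where they were called for 14.8%, 13.2% and 13.3% of all genes in the same order. The median size of the change was 1.30, 0.80, 1.12 and 1.23 on the log2 scale for the 10 genes in WT against set 1, WT against set 2, AtC3H3 OX and AtC3H26 OX, and 0.37, 0.36, 0.36 and 0.35 for all genes. The WT comparisons share their NaCl libraries.

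**Figure D2:**
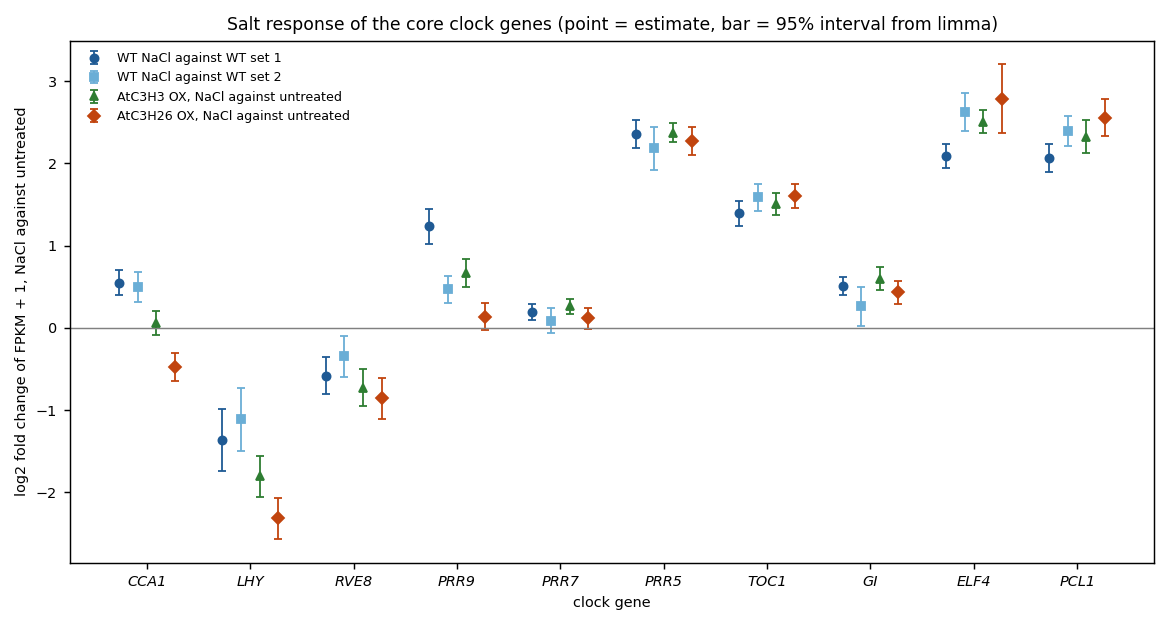
Log2 fold change of FPKM + 1 with NaCl (vertical axis) of each core clock gene (horizontal axis, dawn genes on the left, evening genes on the right) in 4 comparisons, with the 95% interval from limma as a bar. The 4 points of TOC1 lie between 1.39 and 1.60 and those of PRR5 between 2.18 and 2.37, while those of CCA1 spread from 0.55 down to -0.48.

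ELF4, a small protein of the evening complex, had the largest level of the 10 genes in all 6 NaCl libraries. It had 27.3 and 27.0 FPKM in set 1 of untreated WT and 19.7 and 17.1 FPKM in set 2. With NaCl, WT had 113 and 125 FPKM. ELF4 also stood at 18.2 and 19.8 FPKM in untreated and at 110.5 and 115.5 FPKM in NaCl libraries labelled AtC3H3 OX. Those labelled AtC3H26 OX had 17.7 and 13.1 FPKM untreated, and 125.5 and 98.7 FPKM with NaCl, the widest gap within a group for ELF4. No untreated library came near a NaCl library. The log2 fold change was 2.09 (standard error 0.06) in WT against set 1 and 2.63 (standard error 0.09) against set 2. It was 2.51 (standard error 0.05) in AtC3H3 OX and 2.79 (standard error 0.17) in AtC3H26 OX, with adjusted p of 1e-04 or less in all 4 comparisons (limma). A change of this size was found in 1.08% to 2.89% of the genes tested.

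PCL1, also called LUX, is the DNA-binding member of the evening complex. Its untreated level was 8.85 and 7.94 FPKM in set 1 and 6.37 and 6.59 FPKM in set 2 of WT, and rose to 37.7 and 39.0 FPKM with NaCl. The libraries labelled AtC3H3 OX had 6.34 and 6.91 FPKM untreated, and 35.2 and 39.4 FPKM with NaCl. Those labelled AtC3H26 OX had 4.52 and 5.41 FPKM untreated, and 33.8 and 34.3 FPKM with NaCl. All NaCl libraries thus lay in a narrow band far above the untreated ones. The log2 fold change was 2.07 and 2.40 in WT against sets 1 and 2, 2.33 in AtC3H3 OX and 2.56 in AtC3H26 OX (standard errors 0.07 to 0.09, adjusted p of 1.8e-05 or less, limma). PCL1 overlaps the neighbouring gene AT3G46650 in the annotation, which was listed at 0.442 to 4.12 FPKM, and how the authors' counting treated strand is not given in the sources used here.

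TOC1, the pseudo-response regulator of the evening, had 17.0 and 15.3 FPKM in set 1 and 13.8 and 14.1 FPKM in set 2 of untreated WT, and 44.6 and 43.35 FPKM with NaCl. It had 14.3 and 14.3 FPKM in untreated libraries labelled AtC3H3 OX, and 41.2 and 44.0 FPKM with NaCl. In those labelled AtC3H26 OX it had 12.5 and 12.7 FPKM untreated, and 40.75 and 39.9 FPKM with NaCl. The mean with NaCl was 2.72 times that of set 1 and 3.15 times that of set 2 in WT, 2.98 times that untreated in AtC3H3 OX and 3.20 times in AtC3H26 OX. The log2 fold change ranged from 1.39 to 1.60 (standard errors 0.05 to 0.07, adjusted p of 1.7e-05 or less, limma), the smallest range among the evening genes.

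GI, a large protein that holds the photoreceptor ZTL and others in complexes, differed from the other evening genes in the size of its change. Untreated WT had 28.0 and 27.5 FPKM in set 1 and 30.3 and 36.2 FPKM in set 2, and WT with NaCl had 40.6 and 39.2 FPKM. The libraries labelled AtC3H3 OX went from 27.1 and 26.5 FPKM to 42.8 and 39.4 FPKM, and those labelled AtC3H26 OX from 29.2 and 29.7 FPKM to 39.05 and 41.0 FPKM. All NaCl libraries were above all untreated libraries, but replicate 2 of set 2 came close. GI rose by 0.51 (standard error 0.05, adjusted p = 0.00023) in WT against set 1, by 0.60 in AtC3H3 OX (adjusted p = 0.00028) and by 0.43 in AtC3H26 OX (adjusted p = 0.0015, limma). Against set 2 the change was 0.26 on the log2 scale (standard error 0.10, adjusted p = 0.061, limma). It passed the threshold in 3 of 10 alternatives, among them at 0.38 without replicate 2 of set 2 (adjusted p = 0.0021) and at 0.38 with both untreated WT sets together (adjusted p = 0.029). It was at 0.14 without replicate 1 of set 2 (adjusted p = 0.097) and at 0.08 after quantile normalization (adjusted p = 0.57).

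Among the pseudo-response regulators of the day, PRR5 rose strongly, PRR9 rose to an extent that depended on the group it was compared with, and PRR7 moved little. PRR5, the afternoon repressor of CCA1 and LHY, had 11.7 and 13.4 FPKM in set 1 and 12.8 and 15.8 FPKM in set 2 of untreated WT, and 67.6 and 68.7 FPKM with NaCl. The libraries labelled AtC3H3 OX had 12.7 and 12.6 FPKM untreated, and 68.85 and 70.9 FPKM with NaCl. Those labelled AtC3H26 OX had 11.1 and 11.7 FPKM untreated, and 56.35 and 61.8 FPKM with NaCl. The 6 NaCl libraries lay above every untreated library, with those labelled AtC3H26 OX lowest among them. The log2 fold change was 2.36 and 2.18 in WT against sets 1 and 2, 2.37 in AtC3H3 OX and 2.27 in AtC3H26 OX (standard errors 0.05 to 0.11, adjusted p of 2.9e-05 or less, limma). A change as large was found in 1.87% to 2.96% of genes tested.

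PRR7, the regulator of midmorning to noon, had the highest level of the 10 genes in each of the 8 untreated libraries, between 50.9 and 60.9 FPKM with a median of 54.3 FPKM. With NaCl it lay between 54.0 and 65.6 FPKM with a median of 62.7 FPKM, so that the ranges overlapped. The highest library was only 1.29 times the lowest, the narrowest range of the 10 genes. In WT it went from 55.35 and 53.9 FPKM in set 1 and 57.1 and 60.9 FPKM in set 2 to 62.8 and 62.6 FPKM. PRR7 rose by 0.20 in WT against set 1 (standard error 0.04, adjusted p = 0.0055) and by 0.26 in AtC3H3 OX (standard error 0.04, adjusted p = 0.0016, limma). The values were 0.09 against set 2 (adjusted p = 0.29) and 0.12 in AtC3H26 OX (adjusted p = 0.10). The call against set 1 was lost with both untreated WT sets together (0.14, adjusted p = 0.12) and after quantile normalization (0.10, adjusted p = 0.074). After the latter the differences against set 2 and in AtC3H26 OX turned to -0.09 and -0.03, while that in AtC3H3 OX kept its call.

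PRR9, the earliest of these regulators, was the member whose change depended most on the untreated libraries chosen. Untreated WT had 10.95 and 12.9 FPKM in set 1 but 20.9 and 20.8 FPKM in set 2. With NaCl, WT had 29.9 and 28.6 FPKM. The libraries labelled AtC3H3 OX went from 16.7 and 18.8 FPKM to 28.6 and 28.9 FPKM. Those labelled AtC3H26 OX went from 19.8 and 18.4 FPKM to 21.3 and 20.8 FPKM, which is the level of set 2 of WT. PRR9 rose by 1.23 in WT against set 1 (standard error 0.08, adjusted p = 7e-05), by 0.47 against set 2 (standard error 0.07, adjusted p = 0.0020) and by 0.67 in AtC3H3 OX (standard error 0.07, adjusted p = 0.00043). In AtC3H26 OX the value was 0.14 (standard error 0.07, adjusted p = 0.13, limma), with a 95% interval from -0.03 to 0.30.

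The dawn genes went apart from each other, in that LHY and RVE8 fell with NaCl in every genotype while CCA1 rose in WT. LHY, a close paralog of CCA1, had 5.74 and 6.28 FPKM in set 1 and 4.98 and 4.82 FPKM in set 2 of untreated WT, and 2.10 and 1.40 FPKM with NaCl. The libraries labelled AtC3H3 OX had 9.25 and 9.51 FPKM untreated, and 2.11 and 1.84 FPKM with NaCl. Those labelled AtC3H26 OX had 11.85 and 11.3 FPKM untreated, and 1.45 and 1.60 FPKM with NaCl. The NaCl libraries of the 3 genotypes overlapped, whereas untreated libraries of both lines lay above all 4 untreated WT libraries. LHY fell by 1.36 on the log2 scale in WT against set 1 (standard error 0.15, adjusted p = 0.00056) and by 1.11 against set 2 (standard error 0.16, adjusted p = 0.0019). It fell by 1.81 in AtC3H3 OX (standard error 0.10, adjusted p = 3.5e-05) and by 2.32 in AtC3H26 OX (standard error 0.10, adjusted p = 3.2e-05, limma). As ratios of mean FPKM, LHY was 3.44 times and 2.80 times higher in sets 1 and 2 of WT than in WT with NaCl, and 4.76 times and 7.60 times higher untreated in AtC3H3 OX and AtC3H26 OX. These ratios exceed the fold changes of log2(FPKM + 1), since LHY was near 2 FPKM with NaCl.

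RVE8 had 6.83 and 6.37 FPKM in set 1 and 5.52 and 5.36 FPKM in set 2 of untreated WT, and 4.10 and 4.05 FPKM with NaCl. It had 6.97 and 7.18 FPKM untreated and 4.02 and 3.73 FPKM with NaCl in libraries labelled AtC3H3 OX, and 8.38 and 7.73 FPKM untreated and 3.81 and 4.17 FPKM with NaCl in those labelled AtC3H26 OX. Like LHY, RVE8 reached the same low band in all NaCl libraries from different untreated levels. It fell by 0.58 in WT against set 1 (adjusted p = 0.0023), by 0.73 in AtC3H3 OX (adjusted p = 0.00095) and by 0.86 in AtC3H26 OX (adjusted p = 0.0010, standard errors 0.09 to 0.10, limma). Against set 2 it fell by 0.34 (adjusted p = 0.031), and this call was lost without the filter on low values (adjusted p = 0.055) and without any 1 of the 4 libraries (adjusted p from 0.056 to 0.14).

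CCA1 had 17.8 and 18.7 FPKM in set 1 and 18.8 and 19.2 FPKM in set 2 of untreated WT, and 26.2 and 28.2 FPKM with NaCl, the highest level of CCA1 in the series. The libraries labelled AtC3H3 OX had 21.4 and 22.1 FPKM untreated, and 23.6 and 21.9 FPKM with NaCl. Those labelled AtC3H26 OX had 22.0 and 22.9 FPKM untreated, and 15.2 and 16.4 FPKM with NaCl, the lowest level in the series. CCA1 was thus the only gene of the 10 called in opposite directions in these 4 comparisons. It rose by 0.55 in WT against set 1 (standard error 0.06, adjusted p = 0.00051) and by 0.49 against set 2 (standard error 0.07, adjusted p = 0.0023). It fell by 0.48 in AtC3H26 OX (standard error 0.07, adjusted p = 0.0023, limma). In AtC3H3 OX the value was 0.06 (standard error 0.06, adjusted p = 0.41), with a 95% interval from -0.09 to 0.21, and -0.04 after quantile normalization.

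Because FPKM is scaled by length, the paralogs CCA1 and LHY can be set against each other within a library. CCA1 exceeded LHY in all 14 libraries. The ratio was 3.10 and 2.97 in set 1 and 3.77 and 3.99 in set 2 of untreated WT, 2.31 and 2.32 in untreated libraries labelled AtC3H3 OX and 1.85 and 2.03 in those labelled AtC3H26 OX. With NaCl it was 12.4 and 20.2 in WT, 11.2 and 11.9 in AtC3H3 OX and 10.5 and 10.3 in AtC3H26 OX. The paralogs therefore parted in all 3 genotypes, although CCA1 rose in WT and fell in AtC3H26 OX. The gap between the WT libraries with NaCl rests on LHY values of 2.10 and 1.40 FPKM.

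**Figure D3:**
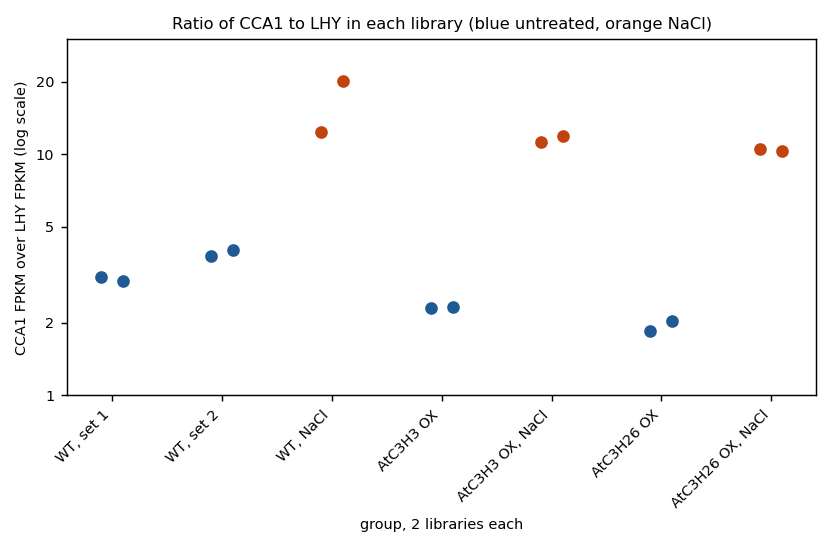
CCA1 FPKM divided by LHY FPKM (vertical axis, log scale) in each of the 14 libraries, by group on the horizontal axis, blue for untreated and orange for NaCl. The 8 untreated libraries lie between 1.85 and 3.99 and the 6 NaCl libraries between 10.3 and 20.2.

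The sets of untreated WT, which carry the same labels but for their number, differed in 2 of the 10 clock genes. PRR9 was higher in set 2 by 0.76 (standard error 0.10, adjusted p = 0.0057), and ELF4 was lower by 0.54 (standard error 0.09, adjusted p = 0.015, limma). Of 19783 genes tested, 2.81% were higher and 7.32% lower, and the median size of the difference was 0.24 for the 10 genes and 0.14 for all genes. The values of PCL1 and TOC1 were -0.33 and -0.19, those of LHY and RVE8 -0.25 and -0.24, and those of GI, PRR5, PRR7 and CCA1 0.25, 0.17, 0.11 and 0.06, with adjusted p from 0.096 to 0.69. The sets also differed in touch and dark genes, whose part in the difference of the clock genes was not tested. The 3 touch genes summed to 258.5 and 267 FPKM in set 1 and to 30.5 and 35.5 FPKM in set 2, and 2 dark-induced genes to 215 and 216 FPKM and to 42.2 and 45.5 FPKM. The rise of PRR9 in WT with NaCl was accordingly 1.23 against set 1 and 0.47 against set 2.

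The line was compared with WT among NaCl libraries. In the libraries labelled AtC3H3 OX, 0 of the 10 genes passed the threshold (limma), where 1.3% of 19642 genes were higher and 1.37% lower. At an unadjusted p under 0.05 (limma), 1858 of the 19642 genes would be called higher and 1754 lower. Of the 10 clock genes 1 would pass, namely CCA1 at -0.25 on the log2 scale (adjusted p = 0.12, limma). The other 9 values lay between -0.07 and 0.12. In the libraries labelled AtC3H26 OX, CCA1 was lower than in WT by 0.75 (standard error 0.07, adjusted p = 0.0068) and PRR9 by 0.45 (standard error 0.05, adjusted p = 0.013, limma). None of the 10 was called higher, and of 19670 genes 2.55% were higher and 4.54% lower. Both calls were lost without either WT library with NaCl, with adjusted p of 0.078 and 0.095 for CCA1 and of 0.12 and 0.11 for PRR9. Values for the other 8 genes ranged from -0.20 for PRR5 to 0.00 for GI.

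Whether the salt response differed between a line and WT was tested as an interaction, once with each set of untreated WT. These tests share the WT libraries with NaCl. Harvest hour is not given for any group, so it and handling cannot be told apart from line, here or among NaCl libraries alone. Untreated, the touch genes summed to 91.65 and 93.65 FPKM in AtC3H26 OX and to 250.2 and 250.4 FPKM in AtC3H3 OX. Their part in the differences below was not tested. For AtC3H26 OX, the change of CCA1 was lower than in WT by 1.03 with set 1 (standard error 0.09, adjusted p = 0.00081) and by 0.97 with set 2 (standard error 0.10, adjusted p = 0.0016, limma). Both calls for CCA1 held under each alternative setting, including every left-out library. The change of LHY was lower by 0.96 with set 1 (adjusted p = 0.021) and by 1.20 with set 2 (adjusted p = 0.0099). With NaCl, LHY lay at 1.45 and 1.60 FPKM in these libraries and at 2.10 and 1.40 FPKM in WT and the ranges overlapped, whereas untreated it lay at 11.85 and 11.3 FPKM in these libraries and at 4.82 to 6.28 FPKM in WT. The call with set 1 was lost in 5 of the 13 alternative settings, all with a library left out, and that with set 2 in none.

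PRR9 rose less in AtC3H26 OX than in WT by 1.1 with set 1 (standard error 0.11, adjusted p = 0.0015), and the value with set 2 was -0.33 (standard error 0.09, adjusted p = 0.058). PCL1 was called with set 1 (0.49, adjusted p = 0.041) and RVE8 with set 2 (-0.52, adjusted p = 0.049), but neither was called with the other set. The call of PCL1 was lost in 9 and that of RVE8 in 12 of 13 alternatives. In all, 1 of the 10 genes was called higher and 3 lower with set 1, beside 6.48% and 3.86% of 20694 genes, and 0 higher and 3 lower with set 2, beside 3.14% and 5.01% of 20700 genes.

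For AtC3H3 OX, CCA1 was the single member called, lower by 0.49 with set 1 (standard error 0.08, adjusted p = 0.031) and by 0.43 with set 2 (standard error 0.09, adjusted p = 0.022, limma). Of all genes, 1.93% of 20579 were higher and 0.841% lower with set 1, and 4.64% of 20632 were higher and 6.51% lower with set 2. The call with set 1 was lost in 10 of 13 alternatives (adjusted p up to 0.10) and that with set 2 in 4 (adjusted p up to 0.088). ELF4 and PRR9 missed the threshold with set 1 at 0.42 (adjusted p = 0.052) and -0.56 (adjusted p = 0.054), and with set 2 they lay on the other side of 0, at -0.12 (adjusted p = 0.59) and 0.20 (adjusted p = 0.24). LHY was at -0.45 with set 1 (adjusted p = 0.28) and at -0.69 with set 2 (adjusted p = 0.057). For PRR5, TOC1, PRR7 and GI, none of the 4 interactions was called, with values between -0.08 and 0.34.

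The 10 genes were also set against a list of 23 other clock genes, of which 22 were tested. In WT against set 1, 14 rose and 2 fell, and in WT against set 2, 15 rose and 3 fell. In both AtC3H3 OX and AtC3H26 OX 12 rose, while 4 fell in the former and 5 in the latter. Of all genes, 30.2%, 28.8%, 31.4% and 29.2% rose and 33.2%, 25.9%, 29.9% and 26.4% fell in these comparisons in turn. The median change of this list was 0.52, 0.52, 0.41 and 0.40 in the 4 comparisons, where that of all genes lay between -0.03 and 0.00. FKF1, an F-box photoreceptor that acts with GI, rose by 2.33, 1.98, 2.45 and 2.30 in WT against sets 1 and 2, AtC3H3 OX and AtC3H26 OX, from between 3.03 and 5.11 FPKM to between 19.1 and 24.6 FPKM. BOA, a paralog of PCL1, rose by 1.32 to 1.89, and PRR3, the remaining pseudo-response regulator, by 1.23 to 1.56. JMJ30, a histone demethylase of the evening, rose by 0.88 to 1.48, and RVE6, a paralog of RVE8, by 1.20 to 1.61, opposite in direction to RVE8 itself. ELF3, of the evening complex, rose less than ELF4 and PCL1, by 0.50, 0.69, 0.56 and 0.72 in the 4 comparisons in turn.

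TCP21, known as CHE and a repressor of CCA1, fell by 0.95 to 1.28 in the 4 comparisons. LNK2, a coactivator that works with RVE8, fell by 0.42 to 0.79, and LNK1 fell by 0.38 in WT against set 2, by 0.15 in AtC3H3 OX and by 0.71 in AtC3H26 OX. Their relative LNK3 rose by 0.59 and 0.42 in WT but fell by 0.23 in AtC3H3 OX and by 0.40 in AtC3H26 OX, and was called in all 4 interactions (-0.65 to -0.99, adjusted p from 0.0014 to 0.0068, limma). LNK4 rose by 0.25 and 0.75 in WT and was at 0.13 in AtC3H3 OX (adjusted p = 0.077) and -0.04 in AtC3H26 OX (adjusted p = 0.74), with an untreated level lower by 0.51 in set 2 of WT than in set 1. RVE3 rose by 2.24 and 2.04 in WT and by 1.95 in AtC3H3 OX but by 0.48 in AtC3H26 OX, with interactions of -1.76 and -1.56 in the latter (adjusted p = 0.0014 and 0.0015). Among the NaCl libraries, RVE3, RVE6, LNK1 and RVE4 were lower in AtC3H26 OX than in WT, by 0.75, 0.32, 0.28 and 0.26 (adjusted p = 0.012, 0.030, 0.048 and 0.033, limma), and 0 of the 22 genes were higher. These calls were lost in 2, 4, 6 and 5 of 9 alternatives. Of all 19670 genes tested in this comparison, 4.54% were lower and 2.55% higher. ZTL, the F-box photoreceptor that targets TOC1 and PRR5 for degradation, was called in no salt comparison, with values between -0.06 and 0.17. LWD2, EFL2 and EFL4 were likewise not called, and EFL1 did not pass the filter.

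Of 20 clock output genes listed, 15 names matched and 12 were tested. In WT against set 1, 5 rose and 5 fell, against set 2, 5 rose and 3 fell, in AtC3H3 OX 5 rose and 6 fell, and in AtC3H26 OX 4 rose and 8 fell, beside the shares of all genes given for the other clock genes. The rises, 4 or 5 of 12, were not far from those shares. Falls in AtC3H3 OX and AtC3H26 OX, 6 and 8 of 12, lay above the 29.9% and 26.4% of all genes. In WT the falls, 5 and 3 of 12, lay closer to the 33.2% and 25.9% of all genes. COL1 and COL2, paralogous zinc finger genes of the CONSTANS family, went apart. COL1 rose by 2.78, 2.69, 2.05 and 1.71, from between 8.78 and 16.0 FPKM untreated to between 50.3 and 71.7 FPKM, and COL2 fell by 1.39, 1.59, 1.72 and 2.24, from between 11.5 and 21.0 FPKM to between 3.42 and 4.84 FPKM. RVE2, a MYB relative of CCA1, rose by 1.22, 1.87, 1.00 and 0.90, and BBX24, a zinc finger factor of light signalling, fell by 0.42 to 0.62. CDF2, a repressor of CONSTANS, rose by 0.94, 1.16, 0.59 and 0.51. Of the bHLH growth factors, PIF5 fell by 0.64 in WT against set 1, by 0.35 in AtC3H3 OX and by 0.34 in AtC3H26 OX but was at 0.00 against set 2, and PIF4 fell by 0.32 and 0.35 in WT and by 0.31 in AtC3H26 OX but was at 0.04 in AtC3H3 OX (adjusted p = 0.55). The B-box genes BBX18 and BBX19 fell by 0.50 and 0.31 in AtC3H3 OX and by 0.42 and 0.57 in AtC3H26 OX. The calls of BBX19 were lost in 5 of 9 alternatives in AtC3H3 OX and in 3 of 9 in AtC3H26 OX. In WT BBX18 fell by 0.38 against set 1 alone, and BBX19 was not called. GRP7, an RNA-binding protein under clock control, rose by 0.47 in WT against set 1, by 1.01 in AtC3H3 OX and by 1.32 in AtC3H26 OX, and was at 0.26 against set 2 (adjusted p = 0.055, limma). RVE1 depended on the set, with -0.20 against set 1 (adjusted p = 0.10) and a rise of 1.02 against set 2 (adjusted p = 0.00061), as it had 13.5 and 14.6 FPKM in set 1 and 5.54 and 5.31 FPKM in set 2. It fell by 0.60 in AtC3H3 OX (adjusted p = 0.0011) and by 0.23 in AtC3H26 OX (adjusted p = 0.040), the latter a call lost in 6 of 9 alternatives. CDF3, of the same family as CDF2, rose by 0.71 and 0.22 in WT and by 0.45 in AtC3H3 OX but fell by 0.39 in AtC3H26 OX, in which CCA1 fell too. Its interactions in AtC3H26 OX were -1.1 and -0.61 (adjusted p = 0.00013 and 0.0031). The call of its rise in WT against set 2 (adjusted p = 0.024, limma) was lost in 5 of 10 alternatives.

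**Figure D4:**
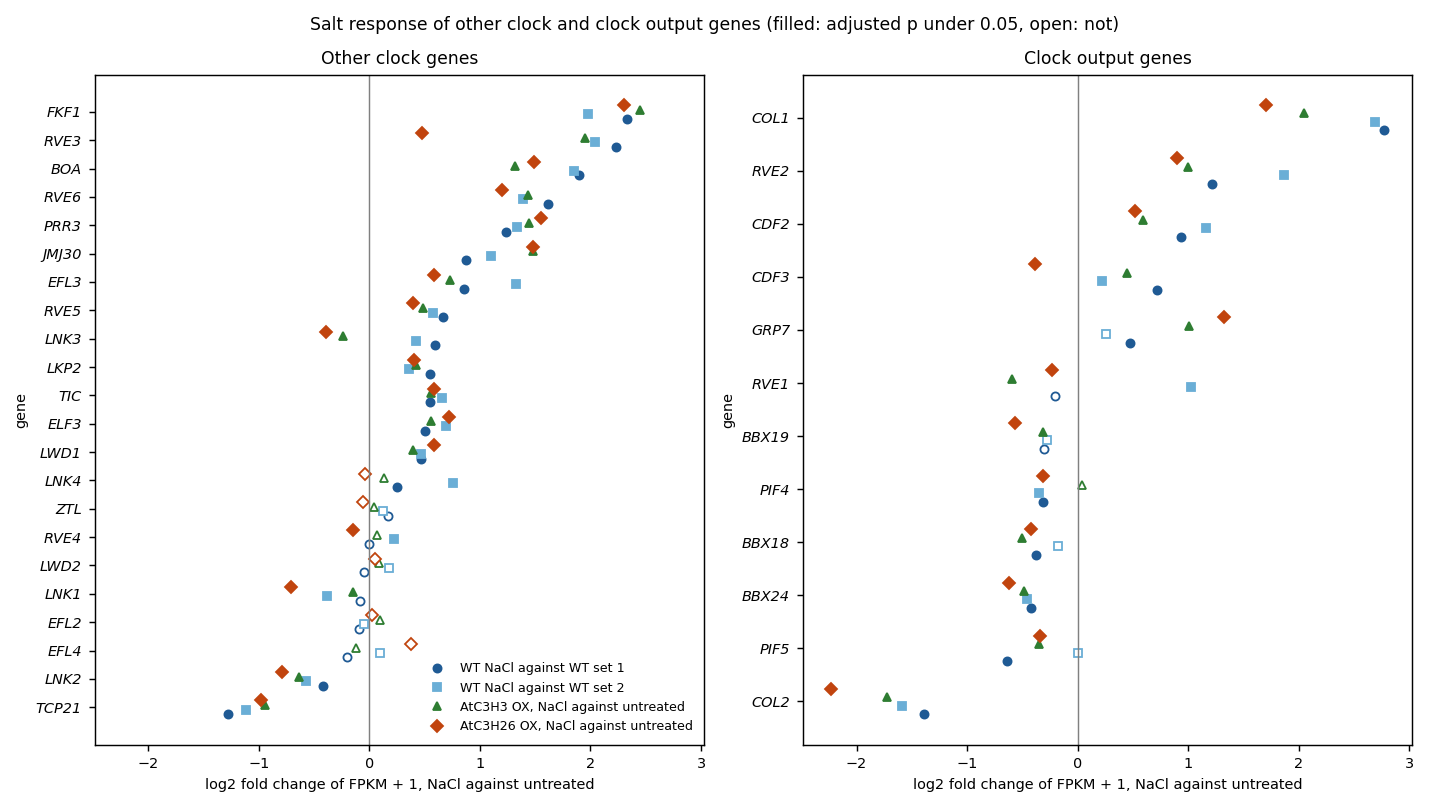
Log2 fold change of FPKM + 1 with NaCl (horizontal axis) of 22 other clock genes (left) and 12 clock output genes (right) in 4 comparisons, filled where the adjusted p was under 0.05 and open where it was not. In WT against set 1, FKF1 and COL1 lie farthest to the right, at 2.33 and 2.78, and TCP21 and COL2 farthest to the left, at -1.28 and -1.39.

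The pattern over the 14 libraries was compared with that of 14263 genes averaging at least 5 FPKM, as a description across libraries that share genotypes and treatments. TOC1 was most like PCL1 (Pearson's r = 0.999 on log2(FPKM + 1)), ahead of WRKY48 and AT2G37110 (0.998 and 0.997). PRR5 was most like AT3G10300, LEA4-5 and ENODL2 (0.998, 0.998 and 0.997). For both genes the 8 untreated and the 6 NaCl libraries lay apart, and any gene with such a gap has a high r here. For CCA1, whose libraries do not part by treatment, the nearest genes were AT5G58950, AT5G38200 and AT1G76570, which encodes a light-harvesting protein, with r of 0.840, 0.834 and 0.826. Between CCA1 and LHY, r was 0.03.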

How the data were processed

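The deposited FPKM values come from trimmed reads that the authors aligned to TAIR10 (TopHat) and quantified per gene (Cufflinks), with 1 library per file and no quantile normalization. Versions and the strand setting are not given in the sources used here. The members and gene lists were chosen with earlier results of these data known. Names were matched to loci and chromosomes through the RefSeq table of TAIR10.1 genes, and 218 rows without a gene name were kept in the tests. Values of log2(FPKM + 1) were fitted with limma 3.58.1 (trend) in R 4.3.3, over genes that reached 1 FPKM in 2 or more of the libraries compared, with p adjusted by the Benjamini-Hochberg method over all genes tested. Only the groups compared entered a fit, and interactions used 8 libraries. The study's quantile normalization of FPKM with edgeR was not run, and limma's quantile normalization was an alternative. The fit was tested on simulated data. The alternatives were a pseudocount of 0.1, no filter, that normalization, all 14 libraries in 1 fit, a replicate block, each library left out and, for WT, both untreated sets together. All 10 clock genes are named. Of the other clock genes and the outputs, up to 3 called genes with the largest change per direction and comparison are named, and up to 5 never called. ELF3 is named as part of the evening complex. Python 3.11.15, pandas 2.3.3, numpy 2.4.6 and matplotlib 3.10.9 made the tables and figures. Gene coordinates were used only to find genes that overlap a clock gene, and sequences were not used here.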

Additional observations from a re-analysis of the deposited data

Results flagged for a closer look

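Differences in salt response between a line and WT, tested as an interaction with limma, were found for 5 of the 10 clock genes over 4 interactions. In AtC3H3 OX 1 of the 10 was called with each set, where 2.77% and 11.1% of all genes were, and in AtC3H26 OX 4 and 3 were, beside 10.3% and 8.15% of all genes. The change of CCA1 with NaCl was lower in AtC3H26 OX than in WT, at -1.03 with set 1 and -0.97 with set 2 of untreated WT, on the log2 scale. It was also lower in AtC3H3 OX, at -0.49 with set 1 and -0.43 with set 2. The change of LHY was lower in AtC3H26 OX, with -0.96 for set 1 and -1.20 for set 2. PRR9 and PCL1 differed in AtC3H26 OX with set 1 alone, at -1.10 and 0.49, and RVE8 with set 2 alone, at -0.52. Of these 9 values, those of CCA1 in AtC3H26 OX with both sets, of LHY with set 2 and of PRR9 with set 1 held their call under all 13 alternative settings. All 4 interactions share the WT libraries with NaCl, and in them harvest hour and handling of the groups cannot be told apart from line. With 2 libraries a group, no group was large enough to look for a library that stands apart.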

How the results depend on the processing

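The rises of PRR5, TOC1, ELF4 and PCL1 and the fall of LHY kept their direction and their call in all 4 salt comparisons under every alternative run. With each library left out in turn, the count of clock genes called ranged from 7 to 8 in WT against set 2 (8 with all libraries), from 2 to 3 between the WT sets (2), from 0 to 3 for AtC3H26 OX against WT with NaCl (2), from 0 to 1 and from 0 to 4 in the interactions of AtC3H3 OX with sets 1 and 2 (1 and 1), and from 2 to 4 in that of AtC3H26 OX with set 1 (4). Counts over all genes ranged from 1162 to 2744 between the WT sets, from 116 to 505 for AtC3H3 OX and from 7 to 1838 for AtC3H26 OX against WT with NaCl, from 147 to 259 and 1057 to 2901 in the interactions of AtC3H3 OX with sets 1 and 2, and from 989 to 1821 and 684 to 2105 in those of AtC3H26 OX. The 7 and 11 genes called for AtC3H26 OX against WT are those without replicates 1 and 2 of WT with NaCl, beside 1394 with all libraries.

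With all 14 libraries in 1 fit, 5 clock genes and 3905 genes were called between the WT sets, and 2915 genes in the interaction of AtC3H26 OX with set 2. In the interactions of AtC3H3 OX, that fit called PRR9 besides CCA1 with set 1 (-0.56, adjusted p = 0.028, limma). With set 2 it called LHY and RVE8 besides CCA1 (-0.69 and -0.38, adjusted p = 0.018 and 0.041, limma). In the interaction of AtC3H3 OX with set 1, ELF4 was called besides CCA1 with a pseudocount of 0.1 (0.44, adjusted p = 0.049, limma). After quantile normalization PRR9 was called besides CCA1 (-0.60, adjusted p = 0.047, limma), where 278 of all genes were called higher and 198 lower. Without any alternative, 398 genes were called higher and 173 lower in this interaction, and 957 and 1343 in that with set 2. For AtC3H26 OX they were 1342 and 799 with set 1 and 649 and 1038 with set 2. The ranges with a library left out are to be read beside these counts. Without the filter, 0 clock genes and 367 genes were called in the interaction of AtC3H3 OX with set 1, and 1150 genes between the WT sets. For AtC3H3 OX and AtC3H26 OX against WT with NaCl, 56 and 677 genes were called without it. After quantile normalization the share of calls that were higher moved from 52.6% to 41.9% in WT against set 2, from 27.7% to 43.0% between the WT sets, and from 69.7% to 58.4% and 62.7% to 52.5% in the interactions of AtC3H3 OX and AtC3H26 OX with set 1. The median of all genes moved by less than 0.1 in each comparison.

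Over the 10 genes and 11 comparisons, 25 values changed sign under an alternative, none of a gene called with all libraries, and 21 of them, between -0.0704 and 0.0784, with a library left out. After quantile normalization PRR7 was at -0.0924 in WT against set 2 and at -0.0328 in AtC3H26 OX, CCA1 at -0.0437 in AtC3H3 OX, and PRR5 at -0.0054 in the interaction of AtC3H3 OX with set 1. With a library left out, among others, LHY was at -0.0645, PRR9 at 0.0092, TOC1 at 0.0022 and ELF4 at 0.0046 in AtC3H3 OX against WT with NaCl, GI at -0.0206 in AtC3H26 OX against WT, and PCL1 at 0.011 in the interaction of AtC3H3 OX with set 2.

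Replicate numbers did not pair the samples. Over 21 pairs of groups the correlation of deviations between libraries of the same number ranged from -0.131 to 0.0953. With a replicate block, 12376 genes were called in WT against set 1 and 1708 in the interaction of AtC3H26 OX with set 1, and counts over all genes stayed within 1.5 times. Among the clock genes the block ended the calls of RVE8 in WT against set 2 (adjusted p = 0.059) and in the interaction of AtC3H26 OX with set 2 (0.073), of PCL1 with set 1 (0.064) and of CCA1 in AtC3H3 OX with set 1 (0.052, limma), and it called ELF4 in the latter (0.041). With 2 libraries a group and unknown fragment counts, small changes such as those of PRR7 are the least certain.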
